A study of Mus musculus with 51 samples.

Results

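The kidneys compared here were collected 4 h apart on embryonic day 19, at hour 44 of the series (CT44, 20 h into that day) and at hour 40 (CT40, 16 h into it). Members were chosen by their time label alone, and they are 8 of the 51 libraries, 4 at CT44 and 4 at CT40. Every library came from the kidney of a wild-type C57BL/6 mouse fetus, with no allele or agent that differs between the time points. RNA was enriched for poly-A transcripts. The series covers 48 h from embryonic day 18 in 13 time points, and its title concerns the circadian clock and developmental timing in the kidney. Both time points lie in the later library series, CT28 to CT48 (24 libraries), so the comparison does not cross the change between series. The labels call the libraries biological replicates but give no dam or litter, so p-values measure only the spread between these libraries, and kidneys collected together may have come from 1 litter. Whole kidneys were sequenced, so fewer cells of a type and less RNA per cell cannot be told apart in any value below.

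The late fetal mouse kidney still makes nephrons. Progenitor cells at its outer edge divide, aggregate and become epithelial vesicles, while earlier nephrons deeper in the organ acquire the transporters, channels and filtration barrier they use after birth. Division, patterning and functional maturation therefore run side by side in 1 organ. The circadian clock is a feedback loop in which Arntl and Clock drive their own repressors, the Per and Cry genes, over about a day.

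Kidney markers were present in all 8 libraries, in the units of the authors' normalised table. Over the 8 libraries Umod of the thick ascending limb lay between 5295 and 7505, Nphs1 of the podocyte between 2069 and 2510, the progenitor factor Six2 between 2127 and 2614, and Aqp2 of the collecting duct between 7704 and 16806. Library totals were 34503727 to 34737358 at CT44 and 34226024 to 34602275 at CT40 (exact permutation test, two-sided, p = 0.200, smallest possible p 0.0286). These values were normalised before deposit, so sequencing depth is unknown. A pair of CT40 libraries stood apart in RNA of other tissues. The summed level of the 14 tested skeletal muscle genes was 4642 in CT40 replicate 3, against 597 to 1108 in the other CT40 libraries, while CT44 had 597 to 865. The 6 tested erythroid genes summed to 1557 in CT40 replicate 2 and to 568 to 659 in the other CT40 libraries, with 470 to 792 at CT44. No member of either list passed the limma test. The muscle list had a median log2 difference of -1.14 (-0.453 without CT40 replicate 3), with 12 of 14 members below 0 and 3 lower at an unadjusted p under 0.05, while the erythroid list had 0.0401 and 0 such genes. Their part in the results below was not tested. Of the adrenal markers, Cyp11b1 was listed at 0 in all 8 libraries and Cyp21a1 in 6 of them. Macrophage genes summed to 8201 to 9541 at CT44 and 7777 to 9301 at CT40, with 0 of 15 past the test.

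Over these 4 h 121 genes were higher at CT44 (0.832% of 14542 tested) and 73 were lower (0.502%), 194 in all (1.33%). The test was limma on log2(value + 1) over the 24 libraries of the later series, and a gene was called at a Benjamini-Hochberg adjusted p under 0.05. Changes were small. The median size among called genes was 0.345 on the log2 scale, 39 genes reached 0.5 and 10 reached 1, while the median gene varied by 0.130 (SD) among CT44 libraries and 0.138 among CT40 libraries. Of the 194, 158 had 4 CT44 values that all lay on one side of the 4 CT40 values, which was the case for 7.24% of all genes tested (3.55% with CT44 above and 3.69% with CT44 below). At an unadjusted p under 0.05, 8.46% of all genes were higher and 8.60% lower. Among the genes that fell were the division genes Cdca2, Aurkb and Cdk1, the differentiation inhibitor gene Id3 and the sterol enzyme gene Cyp51. Among those that rose were the glucose transporter gene Slc2a2, the glycine enzyme gene Gldc, the podocyte gene Ptpro and the chromatin gene Arid1b. The number of calls depended on single libraries: it was 20 without CT44 replicate 2, 23 without CT40 replicate 1, 73 without CT40 replicate 2, 83 higher and 32 lower without CT44 replicate 1, 68 higher and 48 lower without CT44 replicate 3, and 349 without CT40 replicate 3. Genes called without each of the 8 libraries in turn numbered 15. They included Arid1b, Setbp1, Atxn1, Herc2, Fndc3b, Mapkap1, Plcl1, Slc2a2 and Acot1, which rose, and Cdca2, Id3, Cyp51 and Trmt1l, which fell.

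**Figure D1:**
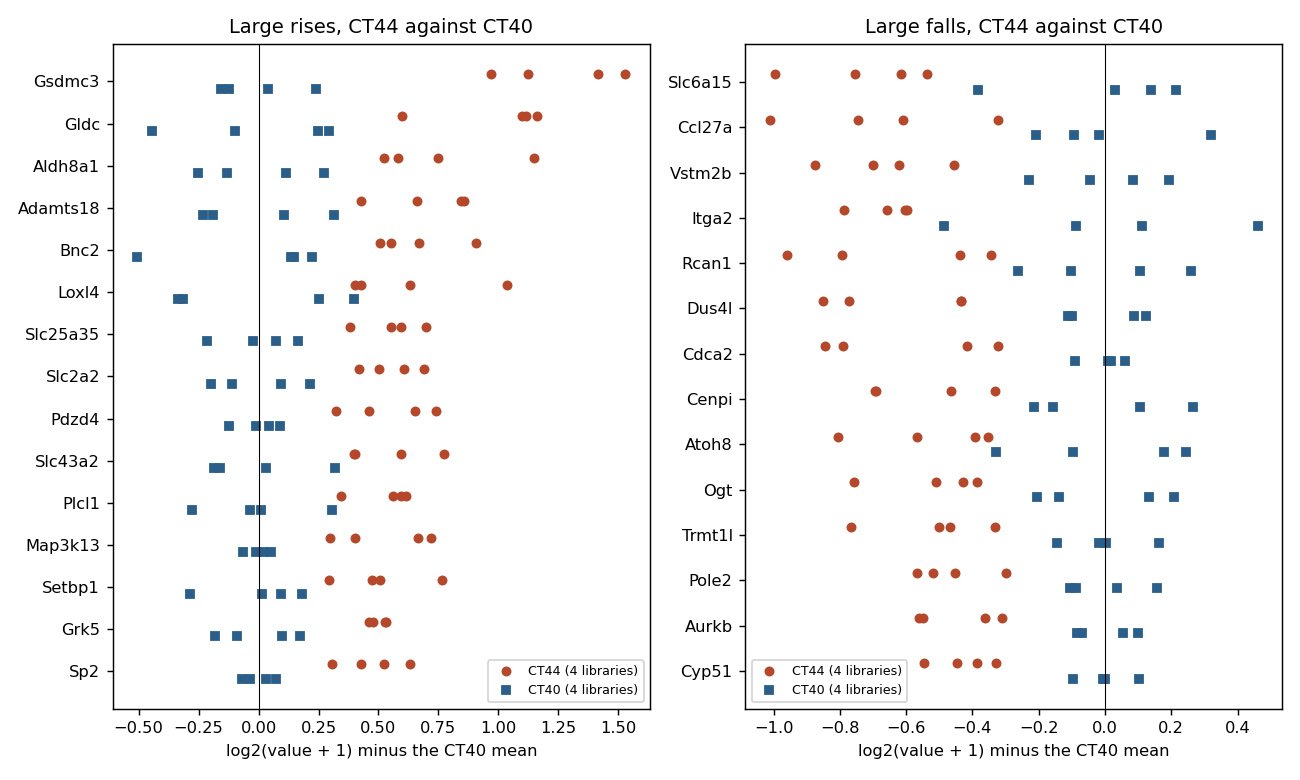
Values of each library as log2(value + 1) minus the CT40 mean of the gene, for the largest rises (left) and falls (right) chosen by the naming rule and reported here; circles are the 4 CT44 libraries and squares the 4 CT40 libraries. The naming rule required that the groups not overlap, and most changes lie between 0.4 and 0.8, with Gsdmc3 (1.26) and Gldc (0.99) beyond.

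The division genes Cdca2, Aurkb, Cdk1, Cenpi and Pole2 fell at CT44. Cdca2, which targets protein phosphatase 1 to mitotic chromatin, had 734, 761, 1053 and 987 at CT44, against 1327, 1238, 1376 and 1336 at CT40. Its log2 difference was -0.59 ± 0.10 (SE; limma, adjusted p = 0.00345), and it was called without each library in turn. Aurkb, the kinase of the chromosomal passenger complex, had 1521, 1508, 1795 and 1732 at CT44, against 2125, 2312, 2100 and 2386 at CT40 (-0.45 ± 0.08, adjusted p = 0.00722). Cdk1, the kinase that drives entry into mitosis, had 2909, 2920, 3457 and 3518 at CT44, against 4228, 3744, 4096 and 4310 at CT40 (-0.36 ± 0.08, adjusted p = 0.0217). In each of these 3 genes all CT44 libraries lay below all CT40 libraries. Cenpi, a protein of the inner kinetochore, had 442, 441, 567 and 517 at CT44, against 769, 640, 616 and 859 at CT40 (-0.55 ± 0.14, adjusted p = 0.0478). Pole2, a subunit of the leading-strand DNA polymerase, had 420, 388, 467 and 401 at CT44, against 590, 534, 642 and 541 at CT40 (-0.46 ± 0.10, adjusted p = 0.0253).

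Other division genes past the threshold were chosen for mention after their values were seen. They were the spindle checkpoint protein Mad2l1 (-0.40), the kinesins Kif22 (-0.35) and Kifc1 (-0.34), the cytokinesis scaffold Anln (-0.33), the polymerase subunit Pold3 (-0.40), the replisome protein Wdhd1 (-0.39) and the histone methyltransferase Ezh2 (-0.37). Mad2l1 had 1917, 1648, 1747 and 2013 at CT44, against 2602, 2159, 2201 and 2730 at CT40. Without CT44 replicate 2 none of the 12 division genes named here passed except Cdca2, with adjusted p between 0.0562 (Aurkb) and 0.223 (Ezh2). Without CT40 replicate 1 only Cdca2 and Aurkb passed, and the others lay between 0.0684 (Wdhd1) and 0.165 (Ezh2). Leaving out CT40 replicate 2, 3 or 4, or CT44 replicate 1, 3 or 4, ended further calls, those of Cenpi, Kif22, Kifc1, Anln, Mad2l1, Ezh2 and, without CT44 replicate 1, Cdk1 (0.0518 to 0.132).

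The mitosis list as a whole showed the same sign without most members passing. Of its 24 members, all tested, 2 were called lower (Aurkb and Cdk1), against 0.502% of all genes, and 0 higher. The median log2 difference was -0.164, against -0.00462 over all genes tested. At an unadjusted p under 0.05, 14 were lower, against 8.60% of all genes. The members share the same 8 libraries, so they are not 24 separate results. All 24 differences were below 0, from -0.447 for Aurkb to -0.0404, and in 8 of the 24 every CT44 library lay below every CT40 library, which 3.69% of all genes did. Among those that did not pass, the survivin gene Birc5 had 1712, 1337, 1745 and 1618 at CT44 and 2138, 1834, 1864 and 2311 at CT40 (-0.35 ± 0.13, adjusted p = 0.180). Mki67, the proliferation marker, had 10677, 11429, 12309 and 12862 at CT44 and 11416, 11423, 11971 and 13842 at CT40, and its groups overlapped. The 28 DNA replication and G1/S genes had no call in limma, 1 gene higher and 2 lower at an unadjusted p under 0.05, and a median of -0.0573, with Cdc45, a helicase cofactor, nearest (-0.28 ± 0.10, adjusted p = 0.141). The count for mitosis was 0 without CT44 replicate 2, 1 without CT40 replicate 1 or CT44 replicate 1, and 5 without CT44 replicate 4.

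Promoters of 4 of the called division genes are printed because many mitotic genes carry a cell cycle homology region (CHR) and CCAAT boxes close to their start. The stretches are the 250 bases before each RefSeq gene start on GRCm38.p6, read 5′ to 3′ along the gene. Capitals mark TTTGAA (the core of the CHR) or CCAAT, on either strand, so that TTCAAA and ATTGG are marked too. The 2 motifs share no base with each other in these stretches.
Cdk1, chr10:69352913-69353162, minus strand: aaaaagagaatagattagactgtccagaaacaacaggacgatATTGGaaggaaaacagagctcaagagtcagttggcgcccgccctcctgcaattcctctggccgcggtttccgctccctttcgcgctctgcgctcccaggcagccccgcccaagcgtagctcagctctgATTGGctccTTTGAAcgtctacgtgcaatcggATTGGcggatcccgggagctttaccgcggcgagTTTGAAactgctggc
Kif22, chr7:127042421-127042670, minus strand: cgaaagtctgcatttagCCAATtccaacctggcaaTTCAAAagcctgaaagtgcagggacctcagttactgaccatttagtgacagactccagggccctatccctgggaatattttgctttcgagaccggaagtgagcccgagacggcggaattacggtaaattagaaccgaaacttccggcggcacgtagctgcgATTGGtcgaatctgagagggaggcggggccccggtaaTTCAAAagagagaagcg
Kifc1, chr17:33890634-33890883, minus strand: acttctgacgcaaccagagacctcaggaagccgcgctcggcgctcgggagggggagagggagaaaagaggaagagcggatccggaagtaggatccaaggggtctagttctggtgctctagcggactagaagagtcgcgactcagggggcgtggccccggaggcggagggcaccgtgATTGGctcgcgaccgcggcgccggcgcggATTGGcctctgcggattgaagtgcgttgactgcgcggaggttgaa
Mad2l1, chr6:66534971-66535220, plus strand: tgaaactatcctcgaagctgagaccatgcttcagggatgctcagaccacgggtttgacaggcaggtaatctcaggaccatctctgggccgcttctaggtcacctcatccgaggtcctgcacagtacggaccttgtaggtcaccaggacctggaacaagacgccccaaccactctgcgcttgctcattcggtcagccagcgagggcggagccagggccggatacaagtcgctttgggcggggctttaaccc
The Cdk1 stretch held 2 TTTGAA and 3 CCAAT matches, Kif22 held 2 of each, Kifc1 held 2 CCAAT matches and no TTTGAA, and Mad2l1 held neither. Among 27025 promoters of the same length, 16.3% held TTTGAA and 34.5% held CCAAT. Of the genes tested 77.1% had an entry, and 10.6% of these held TTTGAA and 35.7% CCAAT. Of the 73 genes lower at CT44, 57 had an entry (78.1%), with TTTGAA in 17.5% and CCAAT in 43.9%. Both sets have entries for too few of their genes for a comparison, which is void for that reason. Of the 24 mitosis genes 20 had an entry, and 7 of these 20 held TTTGAA and 18 (90.0%) held CCAAT. A match describes the letters and does not show that a factor was bound. Cdca2 and Aurkb are named only.

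Id1, Id3, Atoh8 and Hey1, for regulators of transcription, fell as well. Id3 and Id1 are helix-loop-helix proteins that block differentiation factors and are common targets of bone morphogenetic protein signalling, and both were picked after their values were seen. Id3 had 7284, 6592, 7056 and 6919 at CT44, against 9153, 9453, 8640 and 8282 at CT40 (log2 difference -0.35 ± 0.06, SE; limma, adjusted p = 0.00386), and it was called without each library in turn. Id1 had 2137, 1791, 1997 and 1859 at CT44, against 2720, 3064, 2331 and 2192 at CT40 (-0.40 ± 0.09, adjusted p = 0.0321). Atoh8, another helix-loop-helix factor, had 583, 494, 676 and 658 at CT44, against 808, 1024, 978 and 688 at CT40 (-0.53 ± 0.12, adjusted p = 0.0321). Hey1, a Notch target, had 1241, 1044, 1255 and 1314 at CT44, against 1500, 1762, 1414 and 1409 at CT40 (-0.33 ± 0.08, adjusted p = 0.0336). Hey1 was 1 of 17 early nephron genes called lower, against 0.502% of all genes tested, with 0 higher and a list median of -0.00354. Without CT40 replicate 1 or 2 or CT44 replicate 2 none of Id1, Atoh8 and Hey1 passed (adjusted p between 0.084 and 0.164). Id1 also missed the threshold without CT44 replicates 3 and 4, Atoh8 without CT40 replicate 3, and Atoh8 and Hey1 without CT44 replicate 1 (0.0509 to 0.0594). The 14 nephron progenitor genes had no call in limma, with Six2 at -0.05 and a median of 0.0402, and nor had the 12 ureteric tip genes (median 0.112). At an unadjusted p under 0.05 the progenitor list had 1 gene higher and 1 lower and the tip list 4 higher, where the receptor gene Ret came nearest (0.27 ± 0.07, adjusted p = 0.0605).

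Slc2a2, Gldc and Acot1, for a transporter and a pair of enzymes, rose at CT44. Slc2a2, the glucose transporter GLUT2 of the basolateral proximal tubule, had 3654, 3211, 3455 and 3034 at CT44, against 2422, 1975, 2633 and 2099 at CT40. The log2 difference was 0.55 ± 0.10 (SE; limma, adjusted p = 0.00442), and it was called without each library in turn. Slc2a2 (ENSMUSG00000027690.13) is a protein-coding gene on chromosome 3, 28697903 to 28731359 of GRCm38. Gldc, the decarboxylase of the glycine cleavage system, had 2768, 2885, 1956 and 2796 at CT44, against 1207, 1531, 949 and 1581 at CT40 (0.99 ± 0.23, adjusted p = 0.0426). Acot1, a fatty acyl-CoA thioesterase picked after its values were seen, had 3343, 3327, 2935 and 2868 at CT44, against 2237, 2144, 2491 and 2301 at CT40 (0.44 ± 0.07, adjusted p = 0.00185). It has close copies in the genome, so reads may be shared among them.

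The carrier genes Slc43a2, Slc7a7 and Slc25a35 and the enzyme gene Aldh8a1 rose too. Slc43a2, a carrier of large neutral amino acids, had 3614, 4125, 4668 and 3604 at CT44, against 2400, 2793, 3407 and 2441 at CT40 (0.54 ± 0.13, adjusted p = 0.0478). Slc7a7, the basolateral carrier of cationic amino acids and another gene picked after its values were seen, had 3257, 2881, 3112 and 2537 at CT44, against 1980, 2063, 2405 and 2157 at CT40 (0.45 ± 0.10, adjusted p = 0.0251). Aldh8a1, an aldehyde dehydrogenase, averaged 231 ± 48.3 at CT44, against 136.2 ± 22.6 at CT40 (SD, n = 4 each), and its log2 difference passed the limma test (0.75 ± 0.19, adjusted p = 0.0426). Slc25a35, a mitochondrial carrier, had 387, 429, 344 and 399 at CT44, against 278, 296, 227 and 260 at CT40 (0.56 ± 0.14, adjusted p = 0.0478), and its exons overlap Rangrf on the other strand. All 4 genes had CT44 values above all CT40 values. Slc2a2 and Acot1 were the transport and enzyme genes of these paragraphs whose calls did not depend on a library. Gldc, Slc43a2, Slc7a7, Aldh8a1 and Slc25a35 each missed the threshold without CT40 replicate 1, CT40 replicate 2, CT44 replicate 1 and CT44 replicate 2 in turn (adjusted p between 0.0581 and 0.168). Without CT40 replicate 3 or 4 or CT44 replicate 3 or 4 some of them also missed it (0.0545 to 0.113).

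The lists of nephron segments and metabolism gave few calls. Over all genes tested 0.832% were called higher and 0.502% lower. Of 29 proximal tubule genes 0 passed in limma and 3 were higher at an unadjusted p under 0.05, and the median was 0.0769. The nearest was Slc6a19, the neutral amino acid transporter of the brush border, with 831, 1142, 972 and 689 at CT44 and 522, 621, 673 and 466 at CT40 (0.66 ± 0.18, adjusted p = 0.0676). Ass1, of arginine synthesis, had the largest difference of that list with 83, 36, 172 and 20 at CT44 and 7, 9, 9 and 26 at CT40 (2.26 ± 0.71, adjusted p = 0.105), and its groups overlapped. Of 21 tested genes of the loop of Henle and distal tubule 2 were higher and 0 lower (median 0.156). Slc8a1, the basolateral sodium-calcium exchanger, had 6138, 5710, 6422 and 5449 at CT44, against 4460, 4504, 4631 and 4573 at CT40 (0.38 ± 0.08, adjusted p = 0.0251). Slc12a1, the loop diuretic-sensitive cotransporter NKCC2, had 24290, 26289, 25340 and 21459 at CT44, against 18858, 18105, 22304 and 18629 at CT40 (0.32 ± 0.08, adjusted p = 0.0478), and 1 CT44 value lay below the highest CT40 value. Summed over the tested members of that list, levels were 89542 to 95208 at CT44 and 79609 to 85600 at CT40. Both calls were lost without CT40 replicate 1 or 2 or CT44 replicate 1, 2 or 3 (adjusted p between 0.0561 and 0.186), and that of Slc12a1 without CT40 replicate 4 (0.103). Of 20 fatty acid oxidation genes 1 was higher, Ehhadh, a bifunctional enzyme of peroxisomal oxidation (0.78 ± 0.19, adjusted p = 0.0493), with 3019, 3714, 2882 and 1964 at CT44 and 1865, 1144, 2463 and 1389 at CT40. Its groups overlapped, and it passed only with all libraries or without CT40 replicate 3 or CT44 replicate 4 (otherwise 0.0906 to 0.180). Of 17 glycolysis genes 1 was higher, the hexokinase Hk1 (0.31 ± 0.07, adjusted p = 0.0251), with 5297, 5328, 5174 and 5146 at CT44, against 3943, 4234, 4457 and 4264 at CT40. Its exons overlap Hk1os on the other strand. Hk1 missed the threshold without CT40 replicate 1 (0.105) and without CT44 replicate 2 (0.0955).

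Ptpro, Plce1 and Kirrel of the podocyte rose at CT44. Of 17 genes of the podocyte and its basement membrane 3 were higher and 0 lower, against 0.832% and 0.502% of all genes tested. The list median was 0.0581. Ptpro, a receptor phosphatase of the podocyte foot process, had 2742, 2638, 2737 and 2886 at CT44, against 2024, 2363, 1961 and 2490 at CT40 (0.32 ± 0.06, SE; limma, adjusted p = 0.0130). Plce1, a phospholipase whose loss causes nephrotic syndrome in humans, had 1086, 1039, 1063 and 1133 at CT44, against 832, 804, 733 and 931 at CT40 (0.39 ± 0.09, adjusted p = 0.0335). Kirrel, a slit diaphragm protein also named NEPH1, had 5196, 6172, 5715 and 5658 at CT44, against 4431, 4681, 5289 and 4779 at CT40 (0.25 ± 0.06, adjusted p = 0.0478), with 1 CT44 value inside the CT40 range. Nphs1, the nephrin gene at the centre of the slit diaphragm, had 2232, 2103, 2486 and 2509 at CT44 and 2287, 2069, 2510 and 2339 at CT40, a difference of 0.02 ± 0.08. Ptpro was lost without CT40 replicate 1 (0.084), Plce1 without any single library except CT40 replicate 4 (0.0528 to 0.0955), and Kirrel without CT40 replicates 1, 2 and 4 and CT44 replicates 2, 3 and 4 (0.0598 to 0.198).

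Among matrix and vessel genes, Col12a1, a fibril-associated collagen, had 10757, 12821, 12445 and 11886 at CT44, against 8423, 8877, 10164 and 8492 at CT40 (0.42 ± 0.09, adjusted p = 0.0253). It was 1 of 20 matrix genes called higher, with 0 lower, against 0.832% and 0.502% of all genes tested. The median of that list was 0.155 and 18 of its 20 differences were above 0, against 48.8% of all genes tested. The members share the same 8 libraries, so they are not 20 separate results. Their summed level was 286441 to 396578 at CT44 and 297787 to 374979 at CT40. The groups overlapped, and CT44 replicate 1 had the lowest sum of the 8 libraries. Bnc2, a zinc finger factor of mesenchyme, had 530, 625, 488 and 473 at CT44, against 369, 366, 388 and 234 at CT40 (0.66 ± 0.15, adjusted p = 0.0251). The secreted protease Adamts18 had 266, 302, 226 and 305 at CT44, against 147, 181, 209 and 143 at CT40 (0.70 ± 0.16, adjusted p = 0.0267), and the collagen crosslinking enzyme Loxl4 rose by 0.62 ± 0.16 (adjusted p = 0.0478). Plvap, of the diaphragms of fenestrated endothelium, had 7995, 8502, 8441 and 8299 at CT44, against 7121, 7235, 7494 and 7052 at CT40 (0.20 ± 0.05, adjusted p = 0.0336), and was 1 of 18 endothelial genes called higher with 0 lower. Vcl, the adhesion protein vinculin, was picked after its values were seen and rose by 0.40 ± 0.07 (adjusted p = 0.00763). Without CT44 replicate 2 none of these 6 passed (0.058 to 0.121), and without CT40 replicate 1 only Vcl did (the others 0.0618 to 0.196). Col12a1, Loxl4 and Plvap were also lost without CT40 replicate 2 and CT44 replicate 3, Col12a1, Plvap, Bnc2 and Adamts18 without CT40 replicate 4, and Loxl4 without CT44 replicate 4 (0.0542 to 0.14).

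Arid1b, Setbp1, Sp2 and Polr1a, all genes for nuclear proteins, rose at CT44. Arid1b, a DNA-binding subunit of the BAF chromatin remodelling complex, had 5614, 6795, 5878 and 5738 at CT44, against 4138, 4605, 4480 and 4597 at CT40. Its log2 difference of 0.43 ± 0.06 had the smallest adjusted p of all genes (0.000516, limma), and it is named for that rank after its values were seen. Arid1b (ENSMUSG00000069729.14) spans chromosome 17, 4994332 to 5347656 of GRCm38. Setbp1, a SET-binding nuclear protein, had 2982, 3562, 2572 and 2909 at CT44, against 2117, 2239, 1719 and 2375 at CT40 (0.51 ± 0.09, adjusted p = 0.00442). Both genes were called without each library in turn, and in each all CT44 values lay above all CT40 values. The zinc finger factor Sp2 had 1226, 1533, 1332 and 1425 at CT44, against 944, 1012, 966 and 1043 at CT40 (0.47 ± 0.09, adjusted p = 0.0071), and was lost without CT44 replicate 2 (0.0562). Polr1a, the largest subunit of RNA polymerase I, rose by 0.31 ± 0.06 (adjusted p = 0.0162) and was lost without CT40 replicate 1 (0.0719). It was 1 of 18 ribosome biogenesis genes called, against 0.832% of all genes called higher, with a list median of -0.0178.

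The other named rises were Plcl1, Grk5, Map3k13, Pdzd4 and Gsdmc3. Plcl1, a phospholipase C-like protein without catalytic activity, had 1874, 1947, 1614 and 1920 at CT44, against 1281, 1241, 1048 and 1571 at CT40 (0.53 ± 0.09, adjusted p = 0.00442), and it was called without each library in turn. Grk5, a kinase of G protein-coupled receptors, had 904, 950, 915 and 947 at CT44, against 579, 741, 618 and 704 at CT40 (0.50 ± 0.10, adjusted p = 0.00966). Map3k13, a kinase of the JNK cascade, had 346, 464, 446 and 372 at CT44, against 292, 279, 286 and 269 at CT40 (0.52 ± 0.14, adjusted p = 0.0478). Pdzd4, a PDZ domain protein, had 779, 641, 733 and 582 at CT44, against 427, 480, 496 and 462 at CT40 (0.54 ± 0.11, adjusted p = 0.0201). Gsdmc3, of the gasdermin C family, averaged 221 ± 39.3 at CT44, against 91.0 ± 11.9 at CT40 (SD, n = 4 each), and its log2 difference passed the limma test (1.26 ± 0.25, adjusted p = 0.0180), and it has near copies to which reads may be shared. Grk5, Pdzd4, Map3k13 and Gsdmc3 were lost without CT40 replicate 1 and without CT44 replicate 2 (0.0512 to 0.194), Pdzd4 also without CT44 replicate 1 (0.0552), and Map3k13 without any CT40 library or CT44 replicate 3 (0.0518 to 0.113).

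The genes that rose were longer than most. The median genomic span, from the first to the last base in GENCODE M21, was 151613 bases for the 121 genes called higher, 28309 bases for the 73 called lower and 24564.5 bases for all genes tested. Of the genes called higher 74 (61.2%) spanned over 100000 bases, against 7 of those called lower (9.59%) and 14.6% of all tested. Over all genes the step itself leaned the same way: across quintiles of genes by longest transcript, the median log2 difference was -0.068, -0.0144, 0.0012, 0.0047 and 0.0451, from the shortest quintile to the longest. The same quintiles had medians from -0.063 to 0.0652 between CT48 and CT36 and from 0.0031 to 0.0309 between CT20 and CT16. Libraries differed in this lean within each time point. The median deviation of the longest quintile minus that of the shortest was -0.0581, 0.1346, 0.0456 and 0.0941 in CT44 replicates 1 to 4, and -0.1662, 0.0012, -0.0032 and -0.0664 in CT40 replicates 1 to 4. CT44 replicate 1 lay below a pair of CT40 libraries, so the groups overlapped. With the trend on transcript length taken out of the differences, an alternative added after these values were seen, 77 genes were higher and 60 lower, and 120 of the 194 calls were kept. Arid1b (adjusted p = 0.000402), Slc2a2 (0.0127), Setbp1 (0.0111), Cdca2 (0.00566) and Cdk1 (0.024) were kept. Slc8a1 (0.0688), Slc12a1 (0.0505), Plce1 (0.0673), Kirrel (0.0631), Map3k13 (0.0725), Id1 (0.0825), Ccl27a (0.0631), Cenpi (0.0555), Clk2 (0.0548), Slc43a2 (0.0519), Slc6a15 (0.0505), Ehhadh (0.0531), Kifc1 (0.0584) and Ezh2 (0.0531) were not. With the trend on genomic span taken out instead, 87 genes were higher and 52 lower, and 118 of the 194 calls were kept. The share higher was 62.6% in that fit and 56.2% with the transcript length trend taken out, against 62.4% in the main fit. What part transcript length or span has in the other calls was not tested.

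**Figure D2:**
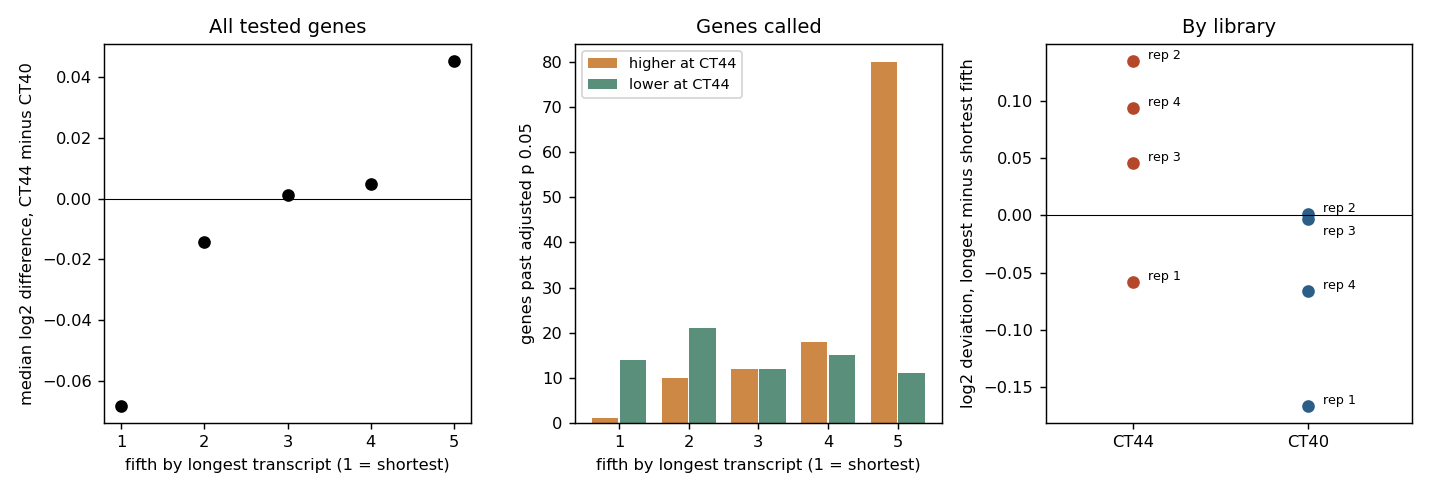
Gene length and the step. Left, the median log2 difference of CT44 minus CT40 for quintiles of all tested genes by longest transcript; middle, the number of genes called higher and lower in each quintile, with 80 of the 121 higher calls in the quintile of longest transcripts; right, the longest minus the shortest quintile in each library, where CT44 replicate 2 is highest (0.1346) and CT40 replicate 1 lowest (-0.1662).

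Other named falls were in genes of varied function. Cyp51, the lanosterol demethylase of cholesterol synthesis, had 3371, 3611, 3924 and 3772 at CT44, against 5285, 4925, 4906 and 4611 at CT40 (-0.43 ± 0.08, SE; limma, adjusted p = 0.00442), and was called without each library in turn. Its exons overlap Akap9 on the other strand. It was 1 of 19 cholesterol synthesis genes called lower, with 0 higher, 5 lower at an unadjusted p under 0.05 and a list median of -0.107. Of all genes tested 0.502% were called lower. Trmt1l, a tRNA methyltransferase-like protein whose exons overlap Rnf2 on the other strand, had 880, 732, 988 and 901 at CT44, against 1125, 1248, 1393 and 1229 at CT40 (-0.52 ± 0.09, adjusted p = 0.00442), and it also was called without each library in turn. Rcan1, an inhibitor of calcineurin, had 1674, 1494, 2142 and 2288 at CT44, against 2423, 3476, 3122 and 2705 at CT40 (-0.63 ± 0.13, adjusted p = 0.0217). Ogt, the enzyme that adds O-GlcNAc to proteins, had 8136, 8602, 6859 and 8863 at CT44, against 12716, 13396, 10049 and 10527 at CT40 (-0.52 ± 0.11, adjusted p = 0.0298). Itga2, the collagen-binding integrin alpha subunit, had 244, 243, 234 and 214 at CT44, against 400, 510, 264 and 348 at CT40 (-0.66 ± 0.15, adjusted p = 0.0296). The remaining named falls were the amino acid transporter Slc6a15 (-0.73), the chemokine Ccl27a (-0.67), Vstm2b (-0.66) and the tRNA dihydrouridine synthase Dus4l (-0.62), and Ccl27a has near copies and overlaps Il11ra1. Clk2, a kinase of splicing factors, fell by 0.24 ± 0.06 (adjusted p = 0.0478) and was 1 of 19 SR protein and splicing kinase genes called lower (list median -0.113). Without CT44 replicate 2, Rcan1, Ogt, Itga2, Slc6a15, Vstm2b, Dus4l and Clk2 missed the threshold (0.0955 to 0.178). Without CT40 replicate 1, Ogt, Itga2, Slc6a15, Ccl27a, Vstm2b, Dus4l and Clk2 did (0.0952 to 0.163). Every other omission ended some call of these 8 genes (0.0516 to 0.0956).

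Ribosomal protein genes had lower values at CT44 without passing. Of the 28 genes for proteins of the cytosolic ribosome 0 were called in limma and 23 were lower at an unadjusted p under 0.05, against 8.60% of all genes. The members share the same 8 libraries, so they are not 28 separate results. All 28 lay below 0, from -0.35 for Rps24 to -0.0972, with a median of -0.215. In 2 of the 28 every CT44 library lay below every CT40 library, against 3.69% of all genes. Rps3 came nearest, with 34663, 30059, 30100 and 32124 at CT44 and 43502, 36392, 34331 and 41540 at CT40 (-0.29 ± 0.08, adjusted p = 0.0738). The summed level was 784424 to 904075 at CT44 and 860623 to 1047312 at CT40, and CT40 replicate 1 was the highest. The sum of CT40 replicate 3 (860623) lay below that of CT44 replicate 1 (904075). These genes are short, with a median longest transcript of 1259 bases, and the list median was -0.144 with the length trend taken out. Without CT40 replicate 3, 8 members were called lower. The 23 tested interferon-stimulated genes had 0 calls in limma, 1 gene lower at an unadjusted p under 0.05 and a median of -0.276, and 21 of them were below 0. Their sum was 17190 to 19530 at CT44 and 19703 to 25763 at CT40, with CT40 replicate 2 highest.

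**Figure D3:**
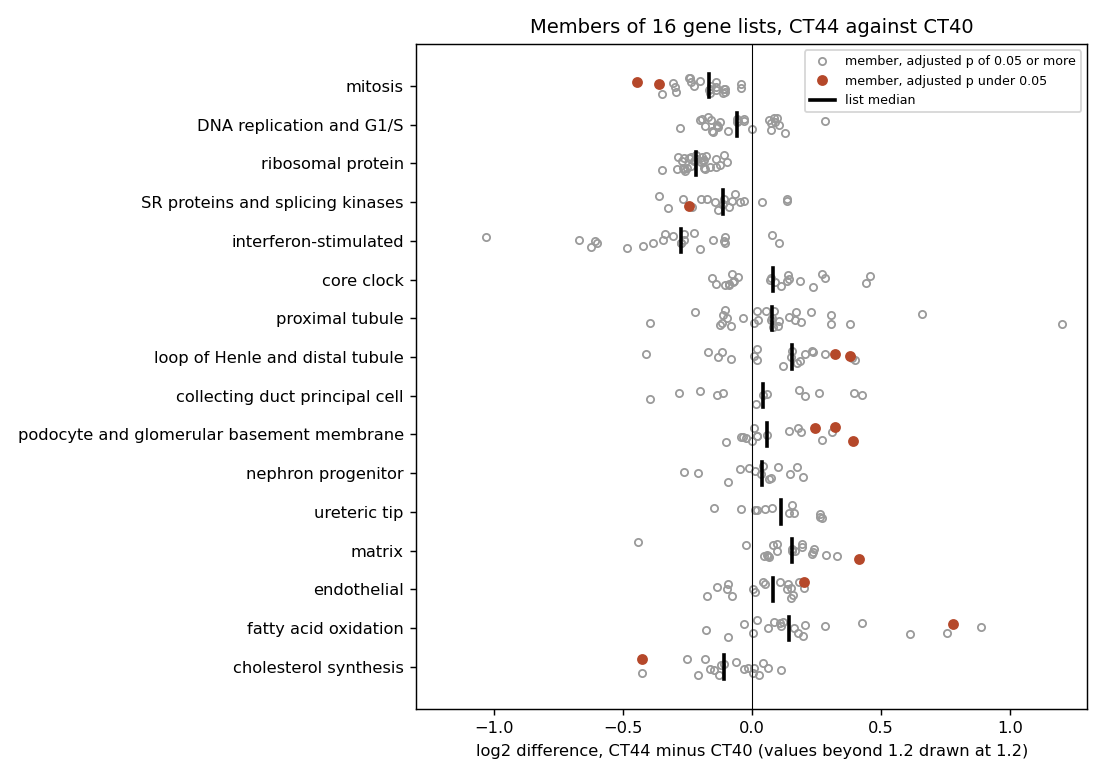
Log2 differences, CT44 minus CT40, of the tested members of 16 gene lists; filled points passed an adjusted p of 0.05, open points did not, and the bar is the list median (Ass1, at 2.26, is drawn at the right edge). All mitosis and ribosomal protein points lie below 0, with medians of -0.164 and -0.215, and 2 and 0 of them are filled.

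No core clock gene passed the limma test between these time points in the fit of the 24 libraries CT28 to CT48. Of the 22 tested members 0 were called, 2 were higher at an unadjusted p under 0.05, and they had a median difference of 0.0816, from -0.153 to 0.459. Nr1d1, which encodes the clock repressor REV-ERB alpha, came nearest with 521, 700, 494 and 432 at CT44 and 372, 405, 443 and 343 at CT40 (0.44 ± 0.12, adjusted p = 0.0666), and only its lowest CT44 value lay within the CT40 range. Its exons overlap Thra on the other strand. Nr1d1 passed without CT40 replicate 3 (adjusted p = 0.0405), without CT44 replicate 4 (0.0304), with the replicate number as a block (0.0413) and in the fit of all 51 libraries (0.00141). Cry2, a cryptochrome, had 1119, 1444, 1148 and 1216 at CT44 and 1103, 1106, 837 and 1009 at CT40 (0.28 ± 0.10, adjusted p = 0.120), and it passed in the fit of all 51 libraries (0.0108). Arntl, the activator also called Bmal1, had 794, 850, 775 and 1012 at CT44 and 817, 934, 735 and 639 at CT40 (0.14 ± 0.12). The period genes varied more between libraries than between time points. Per1 had 2634, 4125, 1887 and 3723 at CT44 and 3031, 3487, 3107 and 3424 at CT40 (-0.14 ± 0.32), and Per2 had 813, 1194, 774 and 1199 at CT44 and 884, 1093, 728 and 1059 at CT40 (0.07 ± 0.24). The cold-inducible RNA-binding genes Cirbp (0.01 ± 0.09) and Rbm3 (-0.01 ± 0.08) lay near 0. Cirbp had 4742, 5606, 4921 and 5564 at CT44 and 5168, 5226, 4983 and 5266 at CT40. A p above the threshold does not show that these genes did not change.

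The other lists had 0 members past the threshold in limma. Those of stress and hormone response were heat shock and chaperones (21 tested, median 0.0276, Bag3 nearest at adjusted p = 0.162), the unfolded protein response (18, 0.0440, Hspa5 at 0.174), immediate early genes (22, 0.0353), glucocorticoid response (16, 0.0609), hypoxia (17, -0.0397) and antioxidant genes (16, 0.133). In the antioxidant list Gpx3, the plasma glutathione peroxidase made by the proximal tubule, had 80593, 82854, 75805 and 67011 at CT44 and 58830, 57843, 61329 and 50469 at CT40 (0.42 ± 0.13, adjusted p = 0.0947). Those of cell types and growth were the collecting duct principal cell (13, median 0.0430), intercalated cell (12, -0.00383), renal stroma (11, 0.0373), smooth muscle and renin cells (11, 0.0126), heterochronic genes (5, 0.0389), imprinted growth genes (10, 0.107) and oxidative phosphorylation (26, -0.0236). At an unadjusted p under 0.05 the heat shock list had 5 genes higher and 4 lower, the antioxidant list 6 higher, the imprinted list 4 higher, and each of the others at most 2 in either direction. Lists of liver, nerve, adrenal, neutrophil, lymphocyte, adipose, gonad and sex-linked genes had 0 calls as well and at most 1 gene each at an unadjusted p under 0.05. The liver sum was 10291 to 14081 at CT44 and 10172 to 16267 at CT40.

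Levels over CT28 to CT48 show how the step lies among its neighbours. Gldc averaged 623 ± 72.6 at CT28, 612 ± 98.0 at CT32, 1854 ± 889 at CT36, 1317 ± 296 at CT40, 2601 ± 433 at CT44 and 2274 ± 307 at CT48 (SD, n = 4 each). Setbp1 averaged 1988 ± 59.6, 1830 ± 182, 2110 ± 160, 2113 ± 283, 3006 ± 411 and 2946 ± 157 at the same 6 time points (SD, n = 4 each), so its CT44 and CT48 means lay above the 4 earlier ones. Slc2a2 and Ptpro took another course. Slc2a2 averaged 2417, 2741, 3482 ± 288, 2282 ± 300, 3339 ± 272 and 3465 ± 328, and Ptpro averaged 2385, 2399, 2772 ± 75.5, 2210 ± 257, 2751 and 2525 ± 79.0, so that CT40 had the lowest mean of both genes and CT36 was close to CT44. Among the falls, Cdk1 averaged 5289 ± 346 at CT28, 4670 ± 452 at CT32, 3130 ± 202 at CT36, 4095 ± 250 at CT40, 3201 ± 332 at CT44 and 2985 ± 258 at CT48. Cdca2 also had a CT40 mean above those of its neighbours, with 1097 ± 109 at CT36, 1319 ± 58.2 at CT40 and 884 ± 160 at CT44. In Slc2a2 and Ptpro the CT40 mean was below both neighbours. Cyp51 was at 5014 ± 512, 4932 ± 276, 3670 ± 237 and 4620 ± 637 over CT36 to CT48, with CT44 lowest. These courses are descriptions, because CT44 and CT40 enter the test itself.

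**Figure D4:**
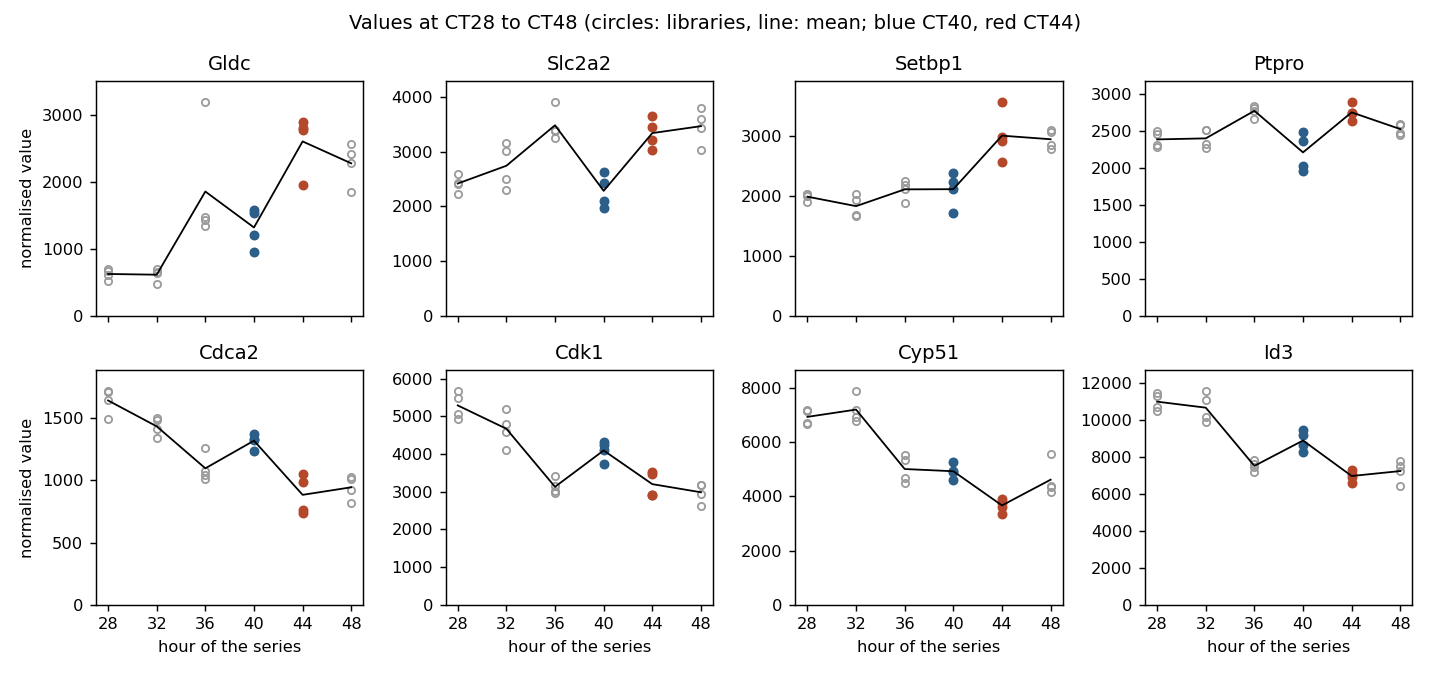
Normalised values of 8 genes called between CT44 and CT40, at the 6 time points CT28 to CT48; circles are libraries (blue CT40, red CT44, grey the others) and the line joins means. CT40 lies below CT36 and CT44 in Slc2a2 and Ptpro and above them in Cdk1, Cdca2 and Id3, while Setbp1 stays near 2110 at CT36 and CT40 and is at 3006 at CT44.

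Libraries outside the comparison allow the called genes to be read elsewhere. Of the 121 genes higher at CT44, 79 (65.3%) were higher at CT48 than at CT36, against 50.8% of all genes tested. Of the 73 lower genes 28 (38.4%) were higher there. A day earlier, between CT20 and CT16, 91 of the 121 (75.2%) were higher at CT20, against 55.9% of all genes, and 26 of 72 lower genes (36.1%) were. Between CT20 and CT16 the median was 0.0768 for the higher genes and -0.0296 for the lower ones. Their medians between CT44 and CT40, 0.326 and -0.353, are large by choice, since that test selected the genes, so the sizes are not compared. Of the 121 higher genes 80 lie in the quintile of longest transcripts, and that quintile leaned upward outside the comparison too. Its median was 0.0652 between CT48 and CT36, where the 121 genes had 0.0534, and 0.0309 between CT20 and CT16. What part transcript length has in the shares above was not tested.

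The difference between the CT44-CT40 step and the CT20-CT16 step, which spans the same hours a day earlier in other libraries, was tested in a fit of all 51 libraries. It passed for 213 of 14426 genes (1.48%), 100 with a more positive step at CT44 (0.693%) and the others with a more negative one (0.783%). The count fell to between 77 and 138 without CT40 replicate 1 or 2, CT44 replicate 1 or 2, or CT20 replicate 2. The share of positive differences was 46.9%, and it was 57.8% with quantile scaling and 59.0% with median-ratio scaling. The genes named below for this difference were chosen by their CT44 and CT40 values, through groups that do not overlap or a call in that step. Those values enter the step difference, so its sizes and p-values for these genes are not independent of the choice. Slc2a2 had a step difference of 0.56 ± 0.12 (SE; limma, adjusted p = 0.00675): beside the rise at CT44, its values were 2873, 3095 and 2826 at CT20 and 2961, 2944, 2858 and 2992 at CT16. Itga2 had a step difference of -0.77 ± 0.16 (adjusted p = 0.00483), with 300, 332 and 337 at CT20 and 322, 300, 306 and 275 at CT16. Cdca2 (-0.59 ± 0.11, adjusted p = 0.00234), Aurkb (-0.45 ± 0.10, adjusted p = 0.0142) and Cdk1 (-0.33 ± 0.08, adjusted p = 0.0295) fell more at CT44, as did Wdhd1 (adjusted p = 0.0407). The steps of the other 8 division genes named above were not shown to differ, with adjusted p between 0.0814 (Kifc1) and 0.447 (Mad2l1). Ccl27a (-0.78 ± 0.17), Vstm2b (-0.72 ± 0.16) and Sfxn4 (-0.67 ± 0.16) had other large negative differences, and Nat8l (1.15 ± 0.23), Aldh8a1 (0.92 ± 0.24) and Pdzd4 (0.63 ± 0.14) other positive ones. Nat8l (adjusted p = 0.0578) and Sfxn4 (0.0622) were not called between CT44 and CT40 in limma. Between CT20 and CT16 Nat8l differed by -0.403 and Sfxn4 by 0.162. The step differences of Slc2a2, Itga2, Vstm2b and Nat8l passed without each of the 15 libraries in turn. Aldh8a1 was lost without any of 7 of them (0.0512 to 0.117), Pdzd4 and Ccl27a without CT40 replicate 1 or CT44 replicate 1, and Sfxn4 without CT40 replicate 1 or CT44 replicate 2 (0.0503 to 0.0702).

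**Figure D5:**
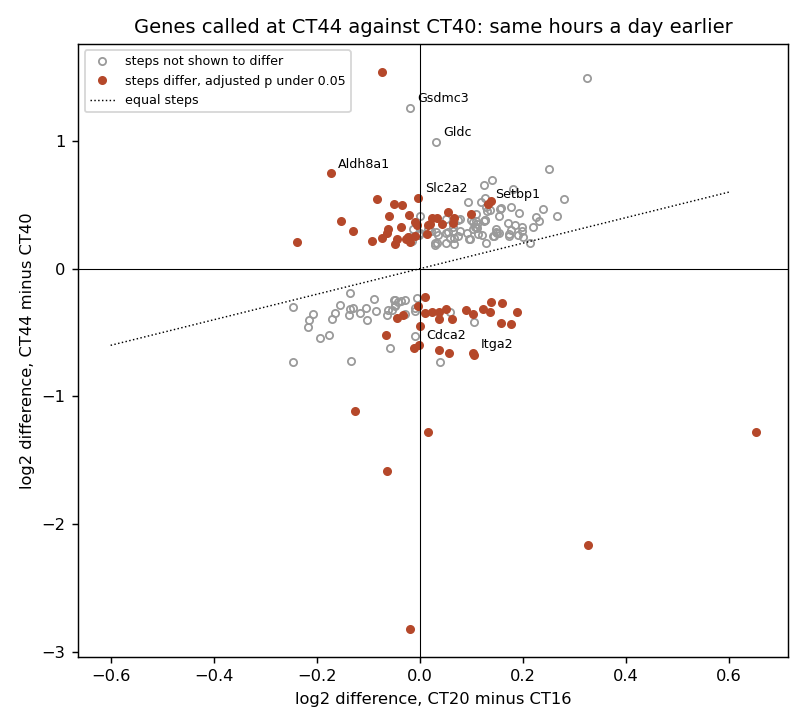
The log2 difference CT44 minus CT40 (vertical) against CT20 minus CT16 (horizontal) for the genes called between CT44 and CT40; filled points are genes whose steps differed at an adjusted p under 0.05, and the dotted line marks equal steps. The axes have different scales. Medians on the horizontal axis are 0.0768 for genes higher at CT44 and -0.0296 for genes lower there, and Slc2a2, Cdca2 and Itga2 are among the filled points.

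Chaperones had the other pattern in this comparison. Of 21 heat shock and chaperone genes 6 had a positive step difference and of 18 unfolded protein response genes 9 did, with 0 negative in either list, against 0.693% and 0.783% of all genes. Hspa8, the constitutive HSP70, had 65792, 55715, 56224 and 54911 at CT44 and 54526, 51438, 53189 and 51727 at CT40, a difference of 0.14 ± 0.06 that did not pass (adjusted p = 0.234). A day earlier it had 52234, 46189 and 52203 at CT20 and 76660, 77651, 71818 and 73459 at CT16, and the step difference was 0.72 ± 0.09 (adjusted p = 1.98e-06). Hspa5, the chaperone BiP of the endoplasmic reticulum, had 19464, 18344 and 22007 at CT20 and 30787, 32892, 28400 and 28557 at CT16 (step difference 0.80 ± 0.11, adjusted p = 6.01e-05), beside 24637, 21355, 22089 and 19089 at CT44 and 18482, 18606, 19996 and 18459 at CT40. In both genes the larger of the 2 steps was that between CT20 and CT16. No core clock gene had a step difference past the threshold in limma. Nr1d1 was higher at the later hour on both days, with 468, 480 and 424 at CT20 and 374, 372, 419 and 391 at CT16 (step difference 0.21 ± 0.13, adjusted p = 0.468). Cirbp had 4035, 4299 and 4436 at CT20 and 2627, 1927, 2917 and 3207 at CT16, and its step difference of -0.69 ± 0.25 did not pass (adjusted p = 0.162).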

How the data were processed

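The deposited table gives 16099 genes for 51 libraries. The build was mm10 and the tools included bcl2fastq, featureCounts 1.5.0-p3 and STAR 2.5.2b, per the submitters' processing notes. For annotation, strand setting and scaling, the sources used here give nothing. The deposited values are treated as a score, normalised and rounded by the authors, because of their behaviour: for rows averaging 1 to 3, variance over mean came to 0.729 up to CT24 and 3.01 from CT28 on. Depth is unknown, so precision rests on the spread between libraries.

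Differences were fitted to log2(value + 1) in limma (version 3.58.1, R 4.3.3), using its trended and robust empirical Bayes options, 1 mean per time point over the 24 libraries CT28 to CT48, and genes with a mean of at least 10. Fold changes on this scale understate those of low genes. The step difference used all 51 libraries with 1 weight per library series. Both fits were tested on simulated data. Noise there was drawn independently for each gene and library, and effects were planted only in genes of higher level. That setting cannot speak to spread shared within a library or litter, or to low genes. Of 1275 library pairs 0 were identical.

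The rule for named genes took the 15 largest rises and 15 largest falls whose groups do not overlap and whose mean reached 69.1 (2 parts in 1e6 of the library total), leaving out predicted models, pseudogenes and sex-linked genes. It added up to 4 called members of each of the 43 lists (689 genes), or the member with the smallest p, and the clock lists. It also added the 5 largest step differences each way past the threshold, within the same limits, so that CT44 and CT40 had not to overlap. Genes whose CT44 and CT40 groups overlap, such as Hspa5 (step difference 0.80), were outside that part of the rule. The members and lists were chosen with earlier results of these data known. In GENCODE M21 15979 of the genes were found. There the exons of Map3k13 overlap 1300002E11Rik, those of Pole2 Gm49384 and those of Rps3 Snord15b, each on the same strand. Exons of Hspa8 overlap Snord14c, Snord14d and Snord14e on the same strand. Some other named genes overlap a gene on the other strand without mention above. The second deposited table was not used. Some genes that the rule names are not reported here.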

Additional observations from a re-analysis of the deposited data

Results flagged for a closer look

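In 10 of the 214 groups of 4 libraries examined, 1 library lay far from the other 3 by Dixon's criterion, and chance alone flags about 1 group in 20. They were Gldc in CT44 replicate 3 (1956), Hspa8 in CT44 replicate 1 (65792), Mrc1, a macrophage receptor, in CT44 replicate 4 (1151), and Chga, of chromaffin cells, in CT44 replicate 4 (18) and in CT40 replicate 3 (58). At CT40 they were also Bnc2 in replicate 4 (234), Hspa5 in replicate 3 (19996), Alas2, of haem synthesis in red cells, in replicate 2 (1426), the erythroid sum in replicate 2 (1557) and the skeletal muscle sum in replicate 3 (4642). CT40 replicates 2 and 3 are the pair described above for RNA of other tissues.

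The CT44-CT40 step differed from the CT20-CT16 step in 213 of 14426 genes (1.48%) in the limma test of that difference. Listed here are 9 of them, those that the naming rule took for their step difference and that are reported. That rule required that CT44 and CT40 not overlap. Nat8l, Hspa8 and Sfxn4 were not called in the CT44-CT40 step itself. The log2 step differences were 1.15 for Nat8l, 0.92 for Aldh8a1, 0.72 for Hspa8, 0.63 for Pdzd4 and 0.56 for Slc2a2, and -0.78 for Ccl27a, -0.77 for Itga2, -0.72 for Vstm2b and -0.67 for Sfxn4.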

How the results depend on the processing

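The 194 calls between CT44 and CT40 became 57 without the mean-variance trend and robust moderation, 33 with only the 8 libraries, 69 with CT36 to CT48 only and 1878 with all 51 libraries, where the spread of the earlier series enters and the share higher was 49.1%, against 62.4%. Leaving out single libraries gave 20 to 349 calls. Same-numbered CT44 and CT40 libraries deviated together with correlations of 0.0674, 0.0502, 0.153 and 0.104, not all over 0.1, so they were not treated as pairs. A fit with the replicate number as a block gave 343, and 6 of the 8 libraries correlated best with their own number, a hint from the data and not from the design. A pseudocount of 8, no filter, a mean of at least 50 and median-ratio scaling gave 138 to 220, and quantile scaling gave 86 higher and 51 lower. Removing trends on gene span or GC content, added after seeing the data like that on transcript length, gave 139 and 234. The 213 step differences became 55 with only the 15 libraries and 77 to 235 without single libraries. They were 283 with the replicate block and 316 with the GC trend removed, where 60.4% were positive. Among the genes taken by the naming rule, none changed sign between CT44 and CT40 while called. Signs of the other called genes were not compared. Of the comparisons made for named called genes, 625 kept the call and 278 lost it, and of those for named genes not called, 47 gained a call. Called under every planned setting that keeps the 8 libraries were 20 genes, 12 of them also without each library in turn. The causes of these changes were not tested. With unknown depth, no limit from counting can be given for low genes.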
